A study of Arabidopsis thaliana with 58 samples.

Results

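The H3K9me2 peaks described here are those of the chromosome 4 pericentromere of Arabidopsis thaliana, the gene-poor block around the centromere. They were taken as the deposited peaks on chromosome 4 whose summit lies from chr4:2800001 to chr4:5500000, borders that were set by low protein-coding gene density and not by H3K9me2. The rule gave 347 peaks of 4144 in the genome, in a region of 2.7 Mb. Using 56 of its 58 samples, the study compared enzymatic with bisulfite sequencing of DNA methylation, and leaves with flowers by enzymatic sequencing alone. It also made 1 H3K9me2 ChIP-seq library from unopened flower buds of Columbia-0 plants, labelled as 4 weeks old, which carry no mutation or treatment, and the library of total H3 from flowers was not analysed here. There are no replicates, so every value below describes 1 library and has no replicate error, and differences between regions or classes of loci were not tested. Intervals are 95% Wilson intervals that cover counting error only.

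H3K9me2 is the dimethylation of lysine 9 of histone H3. In plants it is written by SUVH histone methyltransferases, which bind methylated DNA, and it recruits the chromomethylases CMT2 and CMT3, which methylate cytosines outside CG sites. CMT3 acts on CHG sites, where H stands for A, C or T, so that the histone mark and CHG methylation maintain each other. In Arabidopsis this loop acts mainly on transposons and other repeats of the pericentromeres, and the histone demethylase IBM1 keeps the mark off the bodies of active genes. The gene annotation used here has no transposon class, and RefSeq lists many transposon-derived loci of Arabidopsis as pseudogenes.

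The stretches of DNA below show what the peaks cover and what they leave out. All are from the plus strand of the RefSeq sequence of the build TAIR10.1, written 5′ to 3′, with every CAG, CTG, CCG or CGG triplet in capitals. CAG and CTG are each other's reverse complement, as are CCG and CGG, so capitals mark CHG sites of both strands, and CCG and CGG also overlap a CG site. Over all 27000 windows of 100 bases in the region, 88.9% held at least 1 such triplet, so a window with one is common everywhere. The first 3 are the 100 bases around the summits of the peaks of highest fold, at chr4:5065930-5066029, chr4:3628315-3628414 and chr4:5132789-5132888. The next is the summit of the widest peak, at chr4:4777450-4777549, and after it stands the centre of the longest gap, at chr4:5441541-5441640. The last pair are neighbouring units of a tandem array of 178 bp units, at chr4:4000001-4000178 and chr4:4000179-4000356.
Fold rank 1: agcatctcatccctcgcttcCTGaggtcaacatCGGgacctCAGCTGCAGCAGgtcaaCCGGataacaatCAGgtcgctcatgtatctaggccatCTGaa
Fold rank 2: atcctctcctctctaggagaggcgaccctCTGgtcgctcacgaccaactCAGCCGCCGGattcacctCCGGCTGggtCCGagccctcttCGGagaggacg
Fold rank 3: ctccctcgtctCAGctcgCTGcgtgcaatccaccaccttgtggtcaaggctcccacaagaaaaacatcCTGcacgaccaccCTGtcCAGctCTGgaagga
Widest peak: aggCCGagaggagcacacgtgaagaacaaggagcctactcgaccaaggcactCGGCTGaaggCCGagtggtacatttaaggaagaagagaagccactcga
Centre of the longest gap: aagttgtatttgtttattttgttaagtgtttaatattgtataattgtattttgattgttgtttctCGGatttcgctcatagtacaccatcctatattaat
Array unit: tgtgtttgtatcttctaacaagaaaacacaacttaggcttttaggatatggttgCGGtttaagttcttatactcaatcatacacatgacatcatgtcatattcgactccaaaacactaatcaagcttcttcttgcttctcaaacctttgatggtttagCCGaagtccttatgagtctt
Next array unit: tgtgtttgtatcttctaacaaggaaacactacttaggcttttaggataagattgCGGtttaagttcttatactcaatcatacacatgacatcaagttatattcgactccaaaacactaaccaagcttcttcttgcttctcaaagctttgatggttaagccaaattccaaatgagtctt
The summit windows of the 3 peaks of highest fold lay in pseudogenes and held 10, 10 and 6 triplets, and that of the widest peak lay between annotated loci and held 4. The window in the longest gap, also between loci, held 1 triplet and had a GC content of 25.0%, against 53.0%, 65.0%, 58.0% and 55.0% in the 4 summit windows. The neighbouring array units differed at 13 positions and held 2 and 1 triplets in 178 bases.

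The peaks covered 1864234 bp of the chromosome 4 pericentromere, or 69.0% of it. The pericentromeres of chromosomes 1, 2, 3 and 5, with borders found from gene density, were covered to 54.3%, 49.8%, 54.4% and 54.9% by 514, 487, 806 and 565 peaks. The share on chromosome 4 was thus 15.5 percentage points above the 53.6% of the other 4 regions together, and whether this exceeds the spread between libraries cannot be said from 1 library. The density of loci differed as well. Chromosome 4 held 110 protein-coding genes and 437 pseudogenes in 2700000 bp, and the other regions 1023 and 2190 in 16300000 bp. How this goes with the covered share was not tested. The number of peaks was 129 per Mb on chromosome 4 and 146 per Mb in the other regions, so the larger covered share went with wider and not with more numerous peaks. The mean width was 5372 bp on chromosome 4 and 3678 bp in the other regions, while the medians were 1072 bp and 1014 bp. The widest peak had 64862 bp on chromosome 4 and 199140 bp in the other regions.

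Most of the covered sequence lay in few peaks. On chromosome 4, 51 of the 347 peaks were at least 10 kb wide (14.7%), and these held 69.8% of the base pairs inside peaks. In the other pericentromeres 197 of 2372 peaks reached that width (8.31%), with 54.1% of the base pairs inside peaks. At the other end, 171 peaks on chromosome 4 were under 1 kb wide and together made up 4.35% of the covered base pairs.

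The authors' fold, a linear ratio of the H3K9me2 signal of a peak over a background that the sources used here do not name, ranged from 1.53 to 10.5 over the 347 peaks. Its median was 2.57 on chromosome 4, and it was also 2.57 in the other pericentromeres. A fold of at least 5 was found in 68 peaks on chromosome 4 (19.6%) and in 323 peaks of the other regions (13.6%). Fold and width were called from the same signal, so they are not independent measures. The fold went with the width. Its median was 2.14 in the 171 peaks under 1 kb, 3.00 in 86 peaks of 1 to 5 kb, 5.07 in 39 peaks of 5 to 10 kb, 6.24 in 25 peaks of 10 to 20 kb and 7.01 in 26 peaks of at least 20 kb. Spearman's rho of fold and width was 0.821 over the 347 peaks and 0.816 over the 2372 peaks of the other regions, as a description of peaks that share 1 library and 1 caller. The −log10 q-value had a median of 9.84 and ranged from 1.79 to 183.

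**Figure D1:**
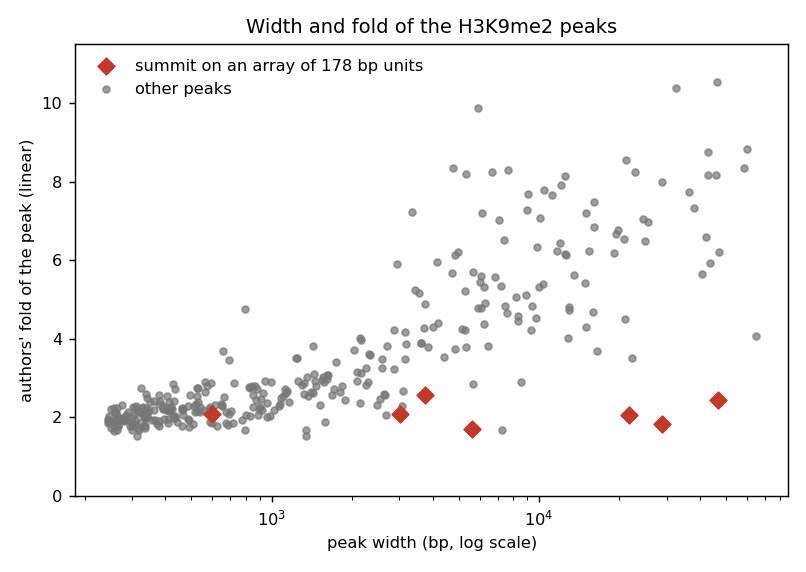
Each point is 1 of the 347 peaks, with its width in bp on a log axis and the authors' fold on a linear axis, and diamonds mark the 7 peaks whose summit lies on an array of 178 bp units. The median fold was higher in each wider class of peaks, but the peaks on the arrays stayed between 1.70 and 2.58, and the fold of the widest peak was 4.06.

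The highest fold, 10.5, belonged to a peak of 46245 bp at chr4:5037947-5084191, which overlapped 9 pseudogenes and no protein-coding gene and had its summit in the pseudogene AT4G08113. A fold of 10.4 was reached by the peak of 32550 bp at chr4:3615622-3648171, with its summit in the pseudogene AT4G06592. The one that followed, at 9.87, was only 5894 bp wide, at chr4:5128110-5134003, and covered the single pseudogene AT4G08138. The next peaks, with a fold of 8.82 at chr4:3152019-3211801 and 8.76 at chr4:3250937-3293719, had their summits in the pseudogenes AT4G06506 and AT4G06516. All 5 of these summits thus lay in pseudogenes, which held 50.2% of all base pairs inside peaks. The share over all 347 summits is not given here, so the count is no result about peaks of high fold.

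The widest peak, 64862 bp at chr4:4718289-4783150, had a fold of only 4.06, overlapped 15 pseudogenes and the protein-coding gene AT4G07932. The next were 59783 bp wide, the peak with its summit in AT4G06506, 58592 bp wide at chr4:3452879-3511470 with a fold of 8.34, and 46990 bp wide at chr4:3672328-3719317 with a fold of 6.22. Next in width, the peak of 46899 bp at chr4:2910815-2957713, had a fold of 2.46 and its summit on a tandem array. The lowest folds were 1.53 at chr4:4545186-4546533, in the pseudogene AT4G07744, 1.54 at chr4:3947794-3948107, in the pseudogene AT4G06698, and 1.65 at chr4:5134379-5134635, between loci. At the left border the nearest peak outside, at chr4:2791895-2792149, had a fold of 1.88 and the first inside, at chr4:2811584-2814442, 3.24. At the right border the last peak inside, at chr4:5492456-5493859, had a fold of 2.65 and the nearest outside, at chr4:5507101-5508320, 2.45.

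Coverage was not even along the region. Of 27 bins of 100 kb, 13 were covered to more than 80% and 4 to less than 25%, and those 4 were the last of the region. The most covered bin, from 3.2 to 3.3 Mb, was covered to 98.6% and held 14 pseudogenes and 0 protein-coding genes. The least covered bins before the last 4 were those at 43.9% from 4.6 to 4.7 Mb, 31.5% from 4.8 to 4.9 Mb and 55.7% from 4.9 to 5 Mb. They held 4, 8 and 0 protein-coding genes in this order. The bin from 5 to 5.1 Mb was again covered to 90.9%, and the bins that follow were covered to 21.2%, 19.7%, 17.6% and 13.4%. Across the 27 bins Spearman's rho of the covered share was −0.712 with the number of protein-coding genes, 0.582 with the number of pseudogenes and 0.0996 with the share of repeat-masked bases, given as a description of neighbouring bins of 1 library.

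**Figure D2:**
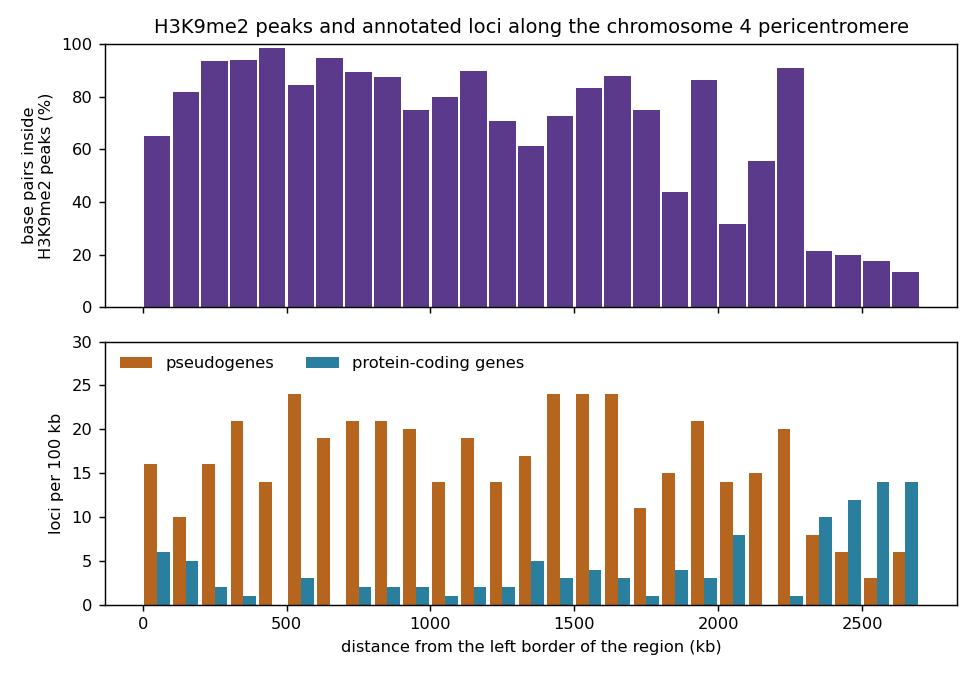
The upper bars give the share of base pairs inside H3K9me2 peaks in each bin of 100 kb, and the lower bars the number of pseudogenes and of protein-coding genes in it, against the distance from the left border in kb. The last 4 bins, covered to 21.2% or less, hold 10, 12, 14 and 14 protein-coding genes, more than any bin before them.

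A line drawn at 5.1 Mb, a place chosen after the data were seen, separates these parts. The first 2.3 Mb were covered to 77.9% and held 306 peaks, and the last 0.4 Mb were covered to 18.0% and held 41 peaks, of which none reached 10 kb. The fold differed less, with a median of 2.54 in the first 2.3 Mb and 2.74 in the last 0.4 Mb. The rule for the borders thus took in a stretch at the right end whose covered share was far below that of the rest.

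When peaks up to 2 kb apart were joined, the 347 peaks formed 94 domains, of which 35 were single peaks, and 76 domains lay in the first 2.3 Mb. The median domain was 7116.5 bp long, but 15 domains of at least 50 kb made up 49.7% of the region. The domain length at which longer domains hold at least 50% of all base pairs in domains was 67164 bp on chromosome 4. It was 38200 bp in the other pericentromeres together and 81686 bp on chromosome 5 alone. The longest domain had 221185 bp on chromosome 4 and 121126 bp on chromosome 2. On chromosomes 1, 3 and 5 it was longer, at 261297, 254253 and 434449 bp, so long domains were not particular to chromosome 4.

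The 5 longest domains spanned 656809 bp, or 24.3% of the region, and overlapped 139 pseudogenes and 7 protein-coding genes. The longest, 221185 bp at chr4:3133739-3354923, joined 15 peaks with folds from 2.30 to 8.82 and was itself covered to 96.7%. It overlapped 41 pseudogenes and the protein-coding gene AT4G06526, annotated as a protein that binds nucleic acids and zinc. The next, 127998 bp at chr4:4336172-4464169, overlapped 27 pseudogenes and 4 protein-coding genes, among them AT4G07526 and AT4G07666. That of 125199 bp at chr4:3532152-3657350 overlapped 28 pseudogenes and 1 protein-coding gene. That of 91534 bp at chr4:4698462-4789995 overlapped 22 pseudogenes and 1 protein-coding gene, and that of 90893 bp at chr4:3430701-3521593 overlapped 21 pseudogenes and 0 protein-coding genes.

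Between the peaks lay 348 uncovered stretches with a median length of 589 bp, and 206 of them were under 1 kb. Only 18 were gaps of at least 10 kb, yet they made up 46.1% of the 835766 uncovered base pairs. In the other pericentromeres 204 gaps of that size held 60.9% of the uncovered base pairs. On chromosome 4 such gaps held 23.3% of the uncovered base pairs in the first 2.3 Mb and 81.4% in the last 0.4 Mb. The 18 gaps held 61 protein-coding genes and 8 pseudogenes in full. They were split evenly at 5.1 Mb, with 9 gaps in the first 2.3 Mb, the longest of 19972 bp, and 9 in the last 0.4 Mb. Undetermined bases of the reference, 2030 in the region, lay in none of these gaps.

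The 5 longest gaps all lay in the last 0.4 Mb. The longest, 77598 bp at chr4:5402792-5480389, held 14 protein-coding genes and 1 pseudogene, AT4G08596, the longest pseudogene of the region that no peak touched. Among its genes were MEKK1, a kinase at the head of a MAP kinase cascade in immune and stress signalling, PUM15, of the RNA-binding Pumilio family, and ORTHL, a relative of the ORTHRUS proteins that bind methylated DNA. The next, 46084 bp at chr4:5350606-5396689, held 6 protein-coding genes, among them the related kinases MEKK3 and MAPKKK9, and 5 lncRNA genes. What parted these gaps was a single peak of 6102 bp at chr4:5396690-5402791, with a fold of 7.20. MAPKKK9 lay 5114 bp to its left and MEKK1 879 bp to its right.

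The gap of 33550 bp at chr4:5223819-5257368 held 6 protein-coding genes, among them UMAMIT20 and UMAMIT17, of a family of amino acid transporters, and TPR8. That of 32513 bp at chr4:5146458-5178970 held 5, among them KNAT1, the homeobox gene also known as BREVIPEDICELLUS that shapes the inflorescence, and ORP1C, of the oxysterol-binding family. That of 20438 bp at chr4:5180801-5201238 held 4 protein-coding genes in full and 1 in part, and 2 pseudogenes. Not every gap held genes: that of 13296 bp at chr4:5271615-5284910 held 0 protein-coding genes and 0 pseudogenes, and that of 11796 bp at chr4:4217831-4229626 held 3 pseudogenes in full, 2 in part and 0 protein-coding genes.

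**Figure D3:**
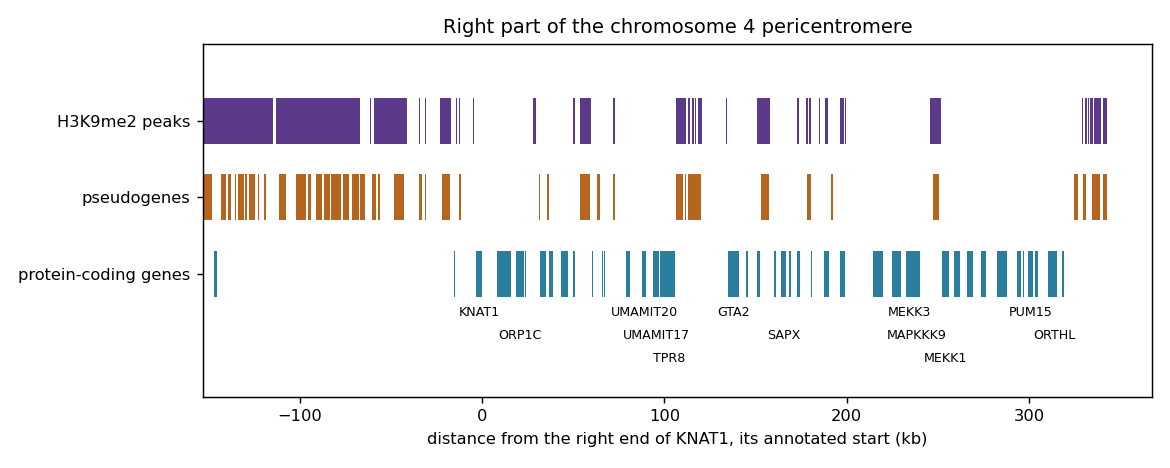
Peaks, pseudogenes and protein-coding genes from 5 Mb to the right border are drawn to scale against the distance in kb from the right end of KNAT1, which is its annotated start on the minus strand, and genes with a symbol are named. Peaks and pseudogenes are dense up to −41.254 kb and sparser from there to KNAT1. To the right of KNAT1, peaks of at most 7092 bp lie between runs of protein-coding genes.

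Pseudogenes were nearly all covered. At least 1 bp of a peak lay in 416 of 437 pseudogenes of the region (95.2%, interval 92.8% to 96.8%), against 1947 of 2190 in the other pericentromeres (88.9%, 87.5% to 90.2%), where the 4 chromosomes ranged between 87.1% and 91.0%. Over all 5 chromosomes the share was 83.1%, so a high share is the rule for pseudogenes in this library. At least 50% of the length was inside peaks in 390 of the 437 (89.2%, against a background of 77.6%), and 318 lay fully inside. Sequence between annotated loci, 52.3% of the region, held 46.2% of all base pairs inside peaks. Pseudogenes, 37.9% of the region, held 50.2% of them. The longest fully covered ones were AT4G06656 with 8466 bp, AT4G06546 with 7651 bp, AT4G06670 with 6621 bp, AT4G06584 with 6162 bp and AT4G05638 with 6135 bp.

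The 21 pseudogenes that no peak touched were shorter, with a median length of 979 bp, against 2035 bp for the 416 with a peak. Besides AT4G08596, with 2039 bp, the longest were AT4G06632 with 1800 bp, AT4G08264 with 1437 bp, AT4G07440 with 1305 bp and AT4G06614 with 1209 bp. None lay more than 5809 bp from a peak, and 11 lay within 1 kb of one. Of these loci 16 were in the first 2.3 Mb, where 398 of 414 pseudogenes had a peak (96.1%), and 5 in the last 0.4 Mb, where 18 of 23 had one (78.3%, 58.1% to 90.3%).

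Transcribed pseudogenes, which the annotation lists apart, were in between. A peak overlapped 17 of 24 (70.8%, 50.8% to 85.1%), against 90 of 219 in the other pericentromeres (41.1%, 34.8% to 47.7%) and 17.8% over all chromosomes. The other chromosomes ranged from 36.4% on chromosome 1 to 50.9% on chromosome 5, whose interval (38.1% to 63.6%) overlaps that of chromosome 4. By base pairs, these loci were covered to 75.9% on chromosome 4 and 74.3% on chromosome 5. The longest fully covered ones on chromosome 4 were AT4G06597 with 4879 bp, AT4G06608 with 4284 bp and AT4G07720 with 4050 bp. Without the last 0.4 Mb, 15 of 21 were overlapped (71.4%).

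Most protein-coding genes were spared. Of 110 in the region, 30 had at least 1 bp in a peak (27.3%, 19.8% to 36.3%) and 80 had none. The share was 25.1% in the other pericentromeres (257 of 1023, 22.6% to 27.9%), with overlapping intervals, and 2.53% over all chromosomes. At least 50% of the gene was inside peaks in 27 genes (24.5%, against a background of 1.94%), and 16 lay fully inside. The overlapped genes were 25 of 60 in the first 2.3 Mb (41.7%, 30.1% to 54.3%) and 5 of 50 in the last 0.4 Mb (10.0%, 4.35% to 21.4%). By base pairs, peaks held 21.0% of the coding sequence, 22.0% of the introns and 4.69% of the exon sequence outside the coding part of these genes, 91.3% of the pseudogenes and 60.9% of the sequence between annotated loci.

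**Figure D4:**
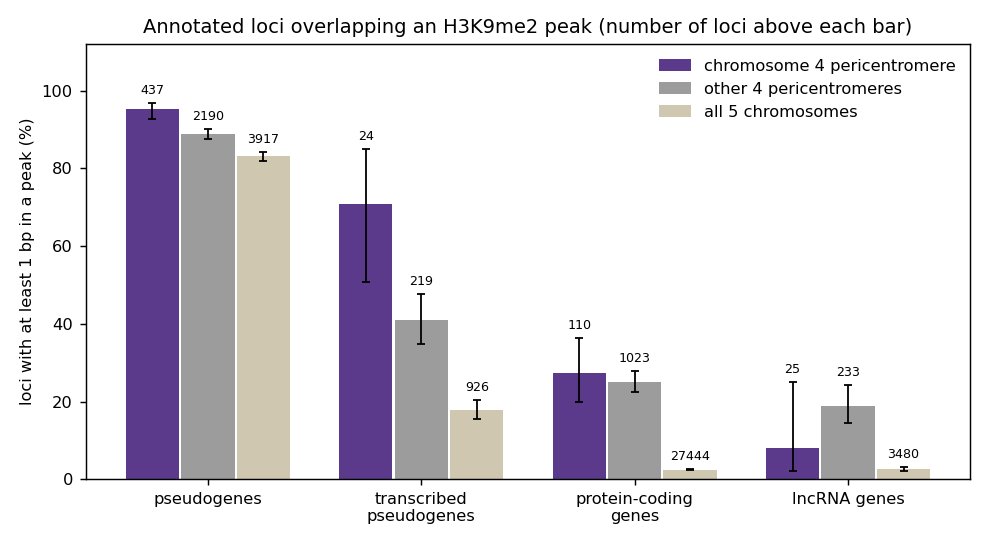
Bars give the percentage of loci of 4 classes with at least 1 bp in a peak, in the chromosome 4 pericentromere, in the other 4 pericentromeres and over all 5 chromosomes, with 95% Wilson intervals and the number of loci above each bar. Pseudogenes stand highest in all 3 areas, and for protein-coding genes the chromosome 4 pericentromere stands at 27.3% and the others at 25.1%, against 2.53% over all chromosomes.

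The overlapped genes were short and little characterised. The 30 with a peak had a median length of 1208 bp and 15 were annotated as uncharacterized proteins, against 1937 bp and 15 of the 80 genes that were spared. The contrast goes partly with position, as 25 of the 30 lay in the first 2.3 Mb. There the 35 spared genes had a median length of 1620 bp and 10 were uncharacterized. In the last 0.4 Mb the 45 spared genes had a median length of 2547 bp and 5 were uncharacterized. The start lay in a peak for 22 of the 30. The most covered gene, AT4G05612, had 4575 bp inside peaks (98.4% of it) and lay in an array of 178 bp units. AT4G06688, annotated as similar to a myosin heavy chain, was covered over all its 3745 bp, AT4G08430, of the Ulp1 protease family, over 2737 bp (90.0%) and AT4G06526 over all its 2644 bp. Another 5 of the 10 most covered genes, AT4G07350, AT4G05555, AT4G07666, AT4G08097 and AT4G07526, are annotated as uncharacterized proteins, with 1510 to 2406 bp inside peaks.

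The remaining gene of that list, AT4G08410, belongs to a run of 4 genes near the right border annotated as proline-rich extensin-like, a family of cell wall proteins built of short repeated motifs. This group was chosen after its values were seen. AT4G08370 was covered to 100%, AT4G08410 to 65.2% and AT4G08400 to 38.4%, while AT4G08380 had 0 bp in a peak and lay 2077 bp from the nearest one. These 3 genes are thus 3 of only 5 overlapped genes in the last 0.4 Mb. Their DNA is internally repeated: at the best shift, 79.4% of the bases of AT4G08370 matched the base 60 bp further on, 77.2% in AT4G08410 at 150 bp, 74.5% in AT4G08380 at 72 bp and 72.3% in AT4G08400 at 75 bp. Over the 91 protein-coding genes of at least 600 bp the median of this measure was 30.6%, and besides these 4 genes only AT4G05612 exceeded 50%. AT4G08380 was thus repeated to a like degree without a peak.

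No gene with a symbol was overlapped. The annotation gives a symbol to 20 protein-coding genes of the region, and 0 of them had a base in a peak (interval 0% to 16.1%), against 8 of 226 in the other pericentromeres (3.54%, 1.80% to 6.83%) and 0.366% over all chromosomes. At these shares a count of 0 among 20 is no result about the genes with a symbol. The genes without a symbol were overlapped in 30 of 90 cases (33.3%) on chromosome 4 and in 249 of 797 (31.2%) in the other regions, with 3.84% over all chromosomes. Most genes with a symbol lay in the last 0.4 Mb, where only 5 of 50 protein-coding genes of any kind were overlapped (10.0%). Symbol and position were not told apart here. Genes with a symbol had a median length of 3244 bp. Having a symbol stands for having been studied, and how this goes with expression was not tested here.

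The distance of the 20 genes from the nearest peak ranged from 558 bp to 27206 bp, with a median of 4330 bp. Closest was GTA2, which encodes an SPT5-type transcription elongation factor, at 558 bp, and it was the only one with a peak in the 1 kb before its start. YY1, a zinc finger transcription factor gene, was the only protein-coding gene in a gap of 12277 bp, 850 bp from its edge, and MEKK1 lay 879 bp and KNAT1 1241 bp from a peak. IBR1, an enzyme gene in the conversion of indole-3-butyric acid to auxin, lay at 1309 bp, and TPR8 at 2168 bp. ACS11, of the ethylene synthesis enzymes, lay at 2238 bp. These genes stood close to peaks on at least 1 side without being overlapped.

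PCN, a WD-40 protein gene, and VFB3, an F-box gene, lay 3455 bp and 4378 bp from a peak inside the same gap of 15524 bp. EHD2, an endocytosis gene, lay at 3568 bp, and CSLC12, of the cellulose synthase-like family, at 4320 bp in the longest gap of the first 2.3 Mb. RAP2.9, which the annotation calls an uncharacterized protein, lay at 4341 bp and ORP1C at 4863 bp. SAPX, the ascorbate peroxidase of the chloroplast stroma, lay at 5855 bp. The larger distances of UMAMIT17 (8974 bp), MEKK3 (9429 bp), ORTHL (13642 bp), UMAMIT20 (14954 bp) and PUM15 (27206 bp) all belong to the last 0.4 Mb.

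**Figure D5:**
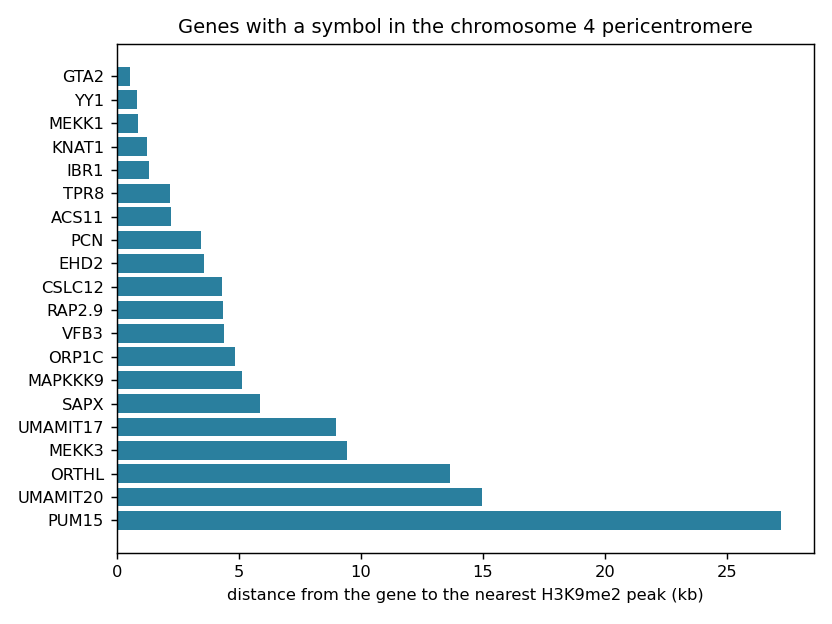
Bars give, for each of the 20 protein-coding genes with a symbol, the distance in kb from the gene to the nearest H3K9me2 peak on either side. All are above 0, from 558 bp for GTA2 to 27206 bp for PUM15.

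The 10 spared genes that were farthest from any peak all lay in the 2 longest gaps. AT4G08545, annotated as similar to an LRR receptor, was 33808 bp from the nearest peak, and AT4G08550, an electron carrier gene, 33498 bp. AT4G08555 (31751 bp) is uncharacterized, AT4G08540 (30829 bp) is annotated as an RNA polymerase II protein, and AT4G08570 (24289 bp) as a heavy metal transport protein. The others, besides PUM15, were the F-box gene AT4G08535 (22154 bp), the BTB/POZ gene AT4G08455 (19767 bp), the lipid transfer gene AT4G08530 (19065 bp) and AT4G08580 (16482 bp). In the first 2.3 Mb the 35 spared genes lay close to peaks, at a median of 1872 bp and at most 7845 bp, and in the last 0.4 Mb the 45 spared genes lay at a median of 6426 bp. None of the 80 had its start in a peak, and 6 had a peak in the 1 kb before it.

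Among RNA genes, 2 of 25 lncRNA genes were overlapped (8.00%, 2.22% to 25.0%), against 44 of 233 in the other pericentromeres (18.9%, 14.4% to 24.4%) and 2.70% over all chromosomes. The other pericentromeres ranged from 5.56% on chromosome 1, below chromosome 4, to 26.2% on chromosome 2. All 14 lncRNA genes of the last 0.4 Mb were free of peaks, and in the first 2.3 Mb 2 of 11 were overlapped (18.2%, 5.14% to 47.7%). Of 4 microRNA genes, MIR401 lay fully inside a peak and MIR5645b, MIR5660 and MIR5645e outside (6.13% of microRNA genes were overlapped over all chromosomes). The only tRNA gene, AT4G08345 for leucine, lay fully inside (4.16% over all chromosomes). Of the 6 genes of the class misc_RNA, 4 were overlapped (9.06% over all chromosomes), and 3 of these, AT4G05175, AT4G05185 and AT4G05195, lay in 1 tandem array of 498 bp units at chr4:3055001-3061000.

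Tandem arrays were mostly covered, but peaks with their summit on the most common kind had low folds. Arrays were groups of at least 3 windows of 1 kb in which at least 60% of bases matched the base 1 unit further on. This rule was chosen after the data were seen. Windows up to 5 kb apart were joined, so an array can hold sequence that did not itself meet the rule. With units of 178 bp, the unit length of the centromeric satellite of Arabidopsis, there were 7 arrays of 110 kb in all, and 99.0% of their base pairs lay inside peaks. The longest was at chr4:2919001-2968000. The others on that side were at chr4:2977001-2982000, chr4:3025001-3036000 and chr4:3042001-3048000. On the right followed those at chr4:3950001-3955000, chr4:3966001-3987000 and chr4:3998001-4011000, the last of which holds the units printed above.

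The 7 peaks with their summit on these arrays had folds from 1.70 to 2.58 with a median of 2.08. The 4 of them that were at least 5 kb wide had a median of 1.95 (1.70 to 2.46), against 6.14 (1.67 to 10.5) in the 86 other peaks of at least 5 kb. The arrays at 3950001, 3966001 and 3998001 lay under peaks of fold 1.70, 1.84 and 2.06. Those starting at 2977001, 3025001 and 3042001 lay under peaks of fold 6.76, 7.33 and 6.24, whose summits were elsewhere. A fold over an array depends on how reads that match many copies were placed, which is not given in the sources used here, and its part in these values was not tested. Arrays of 159 bp units were covered to 30.4% at chr4:4012001-4015000 and to 99.0% at chr4:4054001-4069000. The array of 498 bp units was fully covered, by a peak of 7282 bp with a fold of 1.67.

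The sequence inside peaks was richer in cytosines than that outside. GC content was 40.7% inside and 31.6% outside peaks. There were 56.7 CHG cytosines per kb inside and 35.1 outside, 53.0 CG cytosines per kb inside and 39.8 outside, and 297 CHH cytosines per kb inside and 241 outside. Windows of 100 bases wholly inside peaks held a CHG triplet in 93.2% of cases and 3.34 on average, against 79.1% and 2.11 for windows wholly outside. The bases outside were of more than 1 kind. Those in protein-coding genes, overlapped in part or spared, had 53.1 CHG cytosines per kb and the rest 30.4. The 178 bp arrays, although inside peaks, had only 21.3 CHG cytosines per kb. Among bases that the reference does not mark as repeats, values were 66.3 inside and 44.7 outside. These are counts of sites in the reference sequence and not measured methylation, and how they go with the GC content of the sequenced fragments was not tested. Repeat-masked bases were inside peaks in 70.9% of cases and other bases in 68.1%, so the mask of the reference hardly separated covered from uncovered sequence.

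The genes of the pathway itself lay elsewhere. Of 9 genes looked up, CMT2, CMT3, SUVH4, SUVH5, SUVH6, DDM1, MET1, IBM1 and DRM2, which write, remove or maintain H3K9me2 and DNA methylation, 0 are in the region and 0 had a base in a peak. With 2.53% of all protein-coding genes overlapped, a count of 0 among 9 is no result about these genes.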

How the data were processed

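H3K9me2 ChIP-seq peaks of 1 library of flower buds were used as deposited. The submitters' processing notes name Bowtie 1.1.2, SAMtools, MACS2 2.1.1 and the build TAIR10. Mapping options, control and thresholds are not given in the sources used here. For each peak the authors deposited start and end, a score, the fold (a linear ratio), the −log10 p-value, the −log10 q-value and the summit. The list holds no read counts, so depth is unknown. Reads that map to many places can change the fold and extent of peaks over repeats.

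Peaks were assigned by summit and loci of the RefSeq annotation of TAIR10.1 by midpoint. In the other chromosomes, protein-coding gene share was averaged over 5 neighbouring bins of 100 kb, and the longest unbroken stretch below 50% of the chromosome's median bin was taken as pericentromere. Domains joined peaks up to 2 kb apart. Named were the 5 widest peaks, the 5 of highest and 3 of lowest fold, the 5 longest gaps and domains, the 10 most covered and the 10 farthest protein-coding genes, all genes with a symbol, and the 5 longest pseudogenes on each side. Members and lists were chosen with earlier results of these data known. No test was run on 1 library. Interval arithmetic was tested on simulated data. The analysis ran in Python 3.11.15 with SciPy 1.17.1, pandas 2.3.3 and NumPy 2.4.6, and plots were drawn with matplotlib 3.10.9. Alternatives were other peak lists, borders, joining distances, gap minimums and overlap minimums.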

Additional observations from a re-analysis of the deposited data

How the results depend on the processing

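With 1 library, no error between replicates could be given, and peak borders and folds are those of 1 caller. No paired analysis was possible because there is only 1 library. The covered share of the region, 69.0%, was 60.9% with peaks at or above the median fold of all peaks (2.60), 55.1% at or above the upper quartile (3.82), 67.6% with peaks of at least 500 bp, 71.4% with borders 100 kb further in and 66.4% with borders 100 kb further out. Its distance from the other pericentromeres, 15.5 percentage points, was 14.7, 19.4 and 15.5 with these 3 peak lists. The 94 domains became 39 when peaks up to 5 kb apart were joined. The 18 gaps became 28 at the median fold, 30 at the upper quartile, 40 with a minimum of 5 kb and 5 with a minimum of 20 kb. The share of protein-coding genes overlapped, 27.3%, was 14.5% at the upper quartile of fold. The share of pseudogenes, 95.2%, was 84.9% at the median fold, 76.7% at the upper quartile, 91.1% with peaks of at least 500 bp and 89.2% when at least 50% of the locus had to be covered. Chosen after the data were seen, leaving out the last 0.4 Mb gave a covered share of 77.9%, 9 gaps and 41.7% of protein-coding genes, and leaving out the 178 bp arrays a covered share of 67.8%.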
